A study of Homo sapiens with 72 samples.

Results

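The 6 genes described here are the EGF receptor EGFR, 4 of its ligands (HBEGF, AREG, EREG and TGFA) and ERRFI1, which encodes the feedback inhibitor MIG6. They were picked by name from the 60371 genes listed for each library, by no threshold on their values, though with earlier results of these data known. Population RNA-seq had been made from 72 wells of U2OS, a human osteosarcoma cell line. Of these, 18 wells received DMSO, the solvent, and 3 wells received each of 6 compounds at each of 3 doses, 100 nM, 1000 nM and 10000 nM, for 12 h. All wells came from the same unmodified line grown in serum, so each value belongs to 1 cell line in 1 medium. The compounds were triptolide, which blocks transcription through a subunit of TFIIH, homoharringtonine, which blocks translation at the ribosome, pyrazolanthrone, an inhibitor of JNK kinases, nilotinib, an inhibitor of ABL and related tyrosine kinases, miglitol, an inhibitor of intestinal glucosidases, and MK-2206, an inhibitor of AKT kinases.

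EGFR is a receptor tyrosine kinase at the cell surface. Its ligands are made as membrane-anchored precursors, are cut free by ADAM proteases and then bind the receptor on the same or a neighbouring cell, and the bound receptor pairs with itself or another ERBB receptor and signals through the RAS to ERK cascade and through AKT. The mRNAs of several ligands and of ERRFI1 are known as early targets of that signal, and MIG6 binds the active kinase domain and turns it off, so the family is known for positive and negative feedback. Many such early response mRNAs are short-lived and carry AU-rich stretches behind the coding sequence.

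The 6 genes lie on 5 chromosomes of GRCh38 (GENCODE release 44 annotation). HBEGF occupies chr5:140332843-140346603 on the minus strand, TGFA chr2:70447284-70554193 on the minus strand, EGFR chr7:55019017-55211628 on the plus strand and ERRFI1 chr1:8004404-8026309 on the minus strand. EREG, at chr4:74365145-74388749, and AREG, at chr4:74445136-74455005, are neighbours on the plus strand. AREG and EREG had the largest folds of the 6 genes under homoharringtonine, so their promoters are shown, from RefSeq on GRCh38.p14, plus strand, 250 bases before to 50 bases after the transcript start. Capitals mark TGACGTCA (the cyclic AMP response element), its short form TGACG and the TATA box TATAAA.
AREG promoter, chr4:74444886-74445185: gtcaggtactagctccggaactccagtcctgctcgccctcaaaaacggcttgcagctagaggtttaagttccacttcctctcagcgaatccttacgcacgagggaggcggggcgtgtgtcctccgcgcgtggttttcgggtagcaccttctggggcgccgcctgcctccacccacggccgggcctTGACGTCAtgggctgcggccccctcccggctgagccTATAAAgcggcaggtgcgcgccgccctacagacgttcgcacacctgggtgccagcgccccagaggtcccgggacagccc
EREG promoter, chr4:74364895-74365194: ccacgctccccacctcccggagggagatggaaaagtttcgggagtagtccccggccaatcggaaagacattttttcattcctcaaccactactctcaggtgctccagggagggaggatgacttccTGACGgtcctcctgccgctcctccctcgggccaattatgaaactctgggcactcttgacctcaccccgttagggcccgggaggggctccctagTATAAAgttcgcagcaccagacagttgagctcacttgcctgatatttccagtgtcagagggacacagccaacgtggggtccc

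Both promoters held TATAAA on the sense strand, at -29 in AREG and -32 in EREG, a string found in 7.33% of 35116 promoters of the same length and, among the 6 genes, in the second EGFR promoter as well (-146 and -36). The full TGACGTCA stood at -65 in AREG and in 1.85% of all promoters. TGACG on either strand, which every TGACGTCA contains, stood at -125 in EREG and at -154 in the first TGFA promoter and in 24.55% of all promoters. The AP-1 letters TGANTCA (7.71% of promoters, both strands) occurred at -232 and -136 of the second EGFR promoter only, and the NF-kB site, searched by name (11.27%), in the first TGFA promoter only. The EGR site GCGNGGGCG (9.43%) and the CArG box, searched by name (1.29%), were found in none of the 8 promoters listed for the 6 genes, and those of HBEGF and ERRFI1 held none of the searched letters.

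The AU-rich pentamer ATTTA was counted in the 3' untranslated region of each gene's canonical transcript, because the ligands' mRNAs are known as unstable. AREG held 15.09 ATTTA per kb, more than 99.6% of 19538 genes, whose median was 1.5. That density came from 4 ATTTA in a short region of 265 bases, where the median length of all genes was 1064. By number HBEGF and ERRFI1 held 5 each, EGFR 9, TGFA 13 and EREG 20. EREG held 5.07 per kb, more than 91.0% of genes, TGFA 3.64, HBEGF 3.43 and ERRFI1 3.37. EGFR, at 1.5 per kb, sat at the median. The longer TTATTTATT occurred once each in EREG and TGFA, and in 8.4% of all genes. The densest 30-base stretches of AREG (positions 190 to 219 of its 3' untranslated region), EREG (2557 to 2586) and EGFR (4621 to 4650) are shown with ATTTA in capitals.
AREG: tcaagttgtaaataATTTATTTAatATTTA
EREG: aatccATTTAtttcATTTAcaaaagATTTA
EGFR: atttttatATTTAcaattgatatgcATTTA

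The median library held 38.4 mil expected counts, the smallest 0.071 mil and the largest 68.296 mil. Below 10 mil lay 3 libraries, replicate 2 of 100 nM triptolide with 70767 counts, DMSO replicate 10 with 460014 and replicate 1 of 1000 nM triptolide. For triptolide, values without these libraries are given beside the results. No 2 of the 207 pairs of replicate wells held the same counts. The labels do not say that wells were separate cultures, so p-values measure the spread between wells only, which may be technical. U2OS was checked against its lineage in the 17 deeper DMSO wells, in TPM, a unit that scales each gene to its length and each library to one fixed sum: of 10 osteoblast lineage markers VIM, SPARC and COL1A1 averaged 1865, 2119 and 449, the other 7 lay between 0.0047 (IBSP) and 11.9 (SPP1), among them the bone matrix gene COL1A2 at 0.094 and the defining factors RUNX2 at 3.79 and SP7 at 0.013, and the summed epithelial markers lay between 4.13 and 6.75 and blood markers between 0 and 1.33.

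In the 17 deeper DMSO wells the 6 genes differed widely in TPM, the scale on which levels of different genes can be compared. The feedback inhibitor ERRFI1 averaged 25.9 TPM ± 7.12 (SD, n = 17), and the ligand HBEGF was close to it with 24.3 ± 3.59. EGFR stood at 11.5 ± 2.01. The other ligands were lower, TGFA with 4.40 ± 0.564 and AREG with 4.05 ± 1.24, and EREG was lowest with 0.403 ± 0.113. TGFA and AREG overlapped across wells, as did ERRFI1 and HBEGF. The ligand group was thus led by HBEGF, whose product also binds ERBB4, a receptor at 0.0071 TPM in these wells, whereas ERBB2, the partner receptor without a ligand of its own, reached 53.4 TPM.

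**Figure D1:**
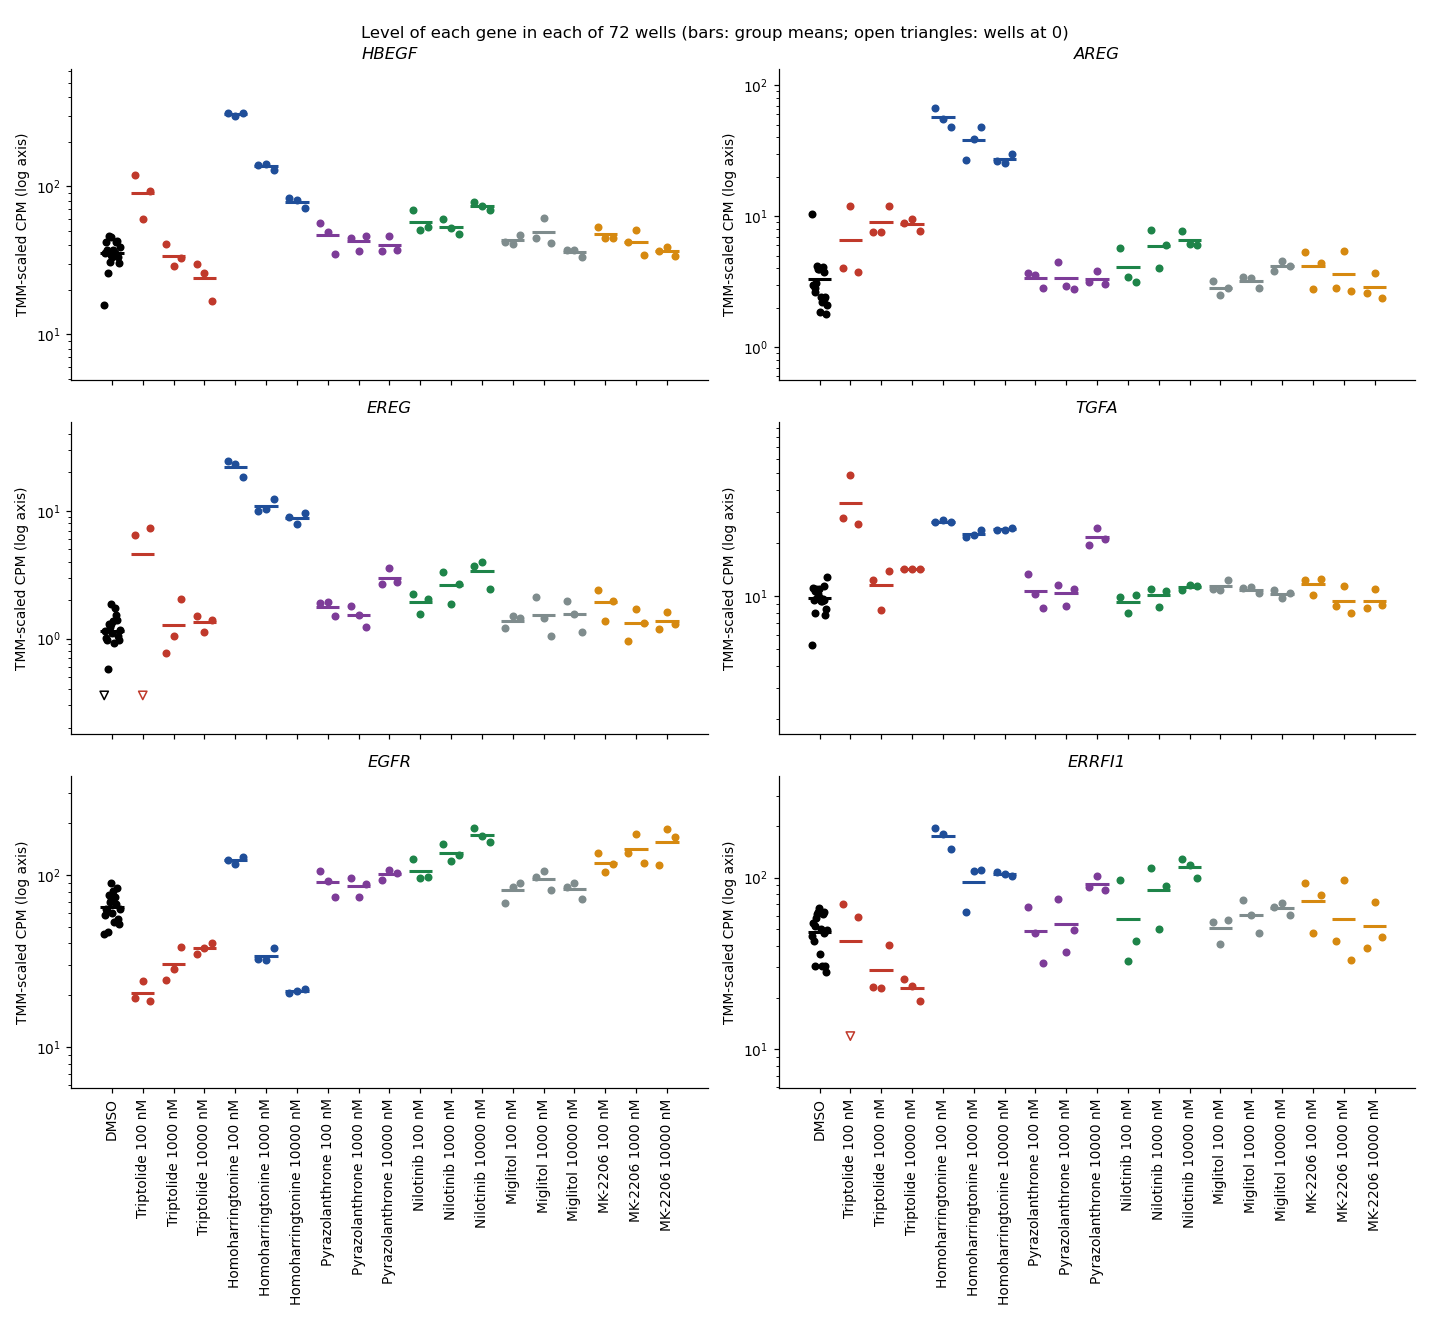
Level of each of the 6 genes in every well, as TMM-scaled CPM on a log axis, for DMSO and the 18 compound and dose groups on the x axis. Points are wells, bars are group means, and open triangles are wells at 0, which are DMSO replicate 10 for EREG and replicate 2 of 100 nM triptolide for EREG and ERRFI1. The 9 homoharringtonine wells lie above the DMSO wells for HBEGF, EREG and TGFA, while EGFR lies above DMSO at 100 nM homoharringtonine and below it at the higher doses.

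Per-well levels are given from here on as CPM scaled with TMM factors, which set the bulk of the transcriptome to no change, so that a change is relative to the other mRNAs of the same well. In bulk wells, fewer cells of a type and less RNA per cell cannot be told apart. The 3 wells of a compound at a dose were set against the 18 DMSO wells by edgeR's quasi-likelihood test, with Benjamini-Hochberg adjustment over all genes tested. A gene was counted as changed where its adjusted p was under 0.05 and its log2(Fold Change) above 1 or below -1. Errors of log2 fold changes are SE. All comparisons with DMSO share the same control wells.

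Homoharringtonine raised all 4 ligands at every dose. Of the 6 genes, 5 rose at 100 nM (34.9% of all genes tested were called, 15.6% higher), 4 rose at 1000 nM (42.4% called, 21.5% higher), and 5 rose and 1 fell at 10000 nM (47.0% called, 23.6% higher). The median log2 fold change of the 6 was 2.47, 1.55 and 1.16 at the rising doses, where the median of all genes tested was -0.03, -0.01 and -0.05. The rises of AREG, EREG and HBEGF were largest at the lowest dose.

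AREG encodes amphiregulin, a ligand of low affinity. Its levels in the 18 DMSO wells ran from 1.80 to 10.5 CPM with a median of 2.90, and without DMSO replicate 10 the highest was 4.21. The homoharringtonine wells had 67.2, 55.5 and 48.3 CPM at 100 nM, 27.1, 39.0 and 48.2 at 1000 nM, and 26.7, 25.4 and 30.1 at 10000 nM. All 9 lay above every DMSO well. AREG rose by a log2 fold change of 4.27 ± 0.18 at 100 nM, which is 19.3-fold (adjusted p = 6.2e-16), of 3.67 ± 0.20 at 1000 nM (adjusted p = 4.8e-14) and of 3.17 ± 0.19 at 10000 nM (adjusted p = 3.3e-13).

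EREG encodes epiregulin, which binds EGFR and ERBB4. DMSO wells had 0 to 1.86 CPM with a median of 1.16, and the 0 belonged to replicate 10. With homoharringtonine EREG had 24.6, 23.2 and 18.5 CPM at 100 nM, 9.96, 10.4 and 12.4 at 1000 nM, and 8.87, 7.85 and 9.63 at 10000 nM. Every treated well was above every DMSO well. The log2 fold changes were 4.19 ± 0.16 (adjusted p = 7.9e-17), 3.16 ± 0.17 (adjusted p = 5.8e-14) and 2.82 ± 0.18 (adjusted p = 5e-13).

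HBEGF encodes the heparin-binding ligand. DMSO wells ran from 15.8 to 46.2 CPM with a median of 35.5, and the lowest was replicate 10. The homoharringtonine wells had 311.8, 296.9 and 312.6 CPM at 100 nM, 138.7, 142.3 and 128.2 at 1000 nM, and 83.7, 80.4 and 71.1 at 10000 nM. No homoharringtonine well overlapped another dose or DMSO. The log2 fold changes were 3.09 ± 0.12 (adjusted p = 7e-17), 1.91 ± 0.13 (adjusted p = 3.3e-12) and 1.08 ± 0.14 (adjusted p = 2.1e-07), and the last was 0.81, under the threshold, with libraries scaled to the 13 mitochondrially encoded mRNAs.

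TGFA encodes transforming growth factor alpha. DMSO wells had 5.26 to 12.7 CPM with a median of 9.64. Homoharringtonine wells had 26.1, 26.9 and 26.1 CPM at 100 nM, 21.6, 22.0 and 23.7 at 1000 nM, and 23.6, 23.6 and 24.2 at 10000 nM, all above DMSO. The log2 fold changes were 1.44 ± 0.10 (adjusted p = 1.1e-11), 1.19 ± 0.11 (adjusted p = 6e-10) and 1.24 ± 0.11 (adjusted p = 4e-10), the last 0.975 with the mitochondrial scaling.

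EGFR itself moved in opposite directions at different doses of homoharringtonine. DMSO wells had 45.6 to 90.1 CPM with a median of 63.4. The treated wells had 122.3, 116.6 and 127.0 CPM at 100 nM, all above DMSO, then 32.3, 32.0 and 37.6 at 1000 nM and 20.5, 21.2 and 21.8 at 10000 nM, all below DMSO. EGFR fell by 1.67 on the log2 scale at 10000 nM (SE 0.18, adjusted p = 7.4e-09). The changes at 100 nM (0.90 ± 0.14, adjusted p = 3.4e-06) and at 1000 nM (-0.96 ± 0.16, adjusted p = 1.5e-05) passed the p threshold but not the fold threshold, and without homoharringtonine replicate 3 the latter was -1.02 and called.

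ERRFI1, the feedback inhibitor, rose with homoharringtonine at the lowest and highest dose. DMSO wells had 28.1 to 66.3 CPM with a median of 50.1. The treated wells had 194.1, 178.9 and 147.5 CPM at 100 nM and 108.1, 104.6 and 101.8 at 10000 nM, all above DMSO. At 1000 nM they had 62.6, 108.7 and 111.0, and the first overlapped the DMSO wells. The log2 fold change was 1.85 ± 0.18 at 100 nM (adjusted p = 3.6e-09) and 1.08 ± 0.20 at 10000 nM (adjusted p = 3.8e-05), the latter 0.87 with the mitochondrial scaling. At 1000 nM it was 0.95 ± 0.21 (adjusted p = 0.00028), under the fold threshold, and 1.16 and called without replicate 1.

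The decline with dose was tested in the 9 homoharringtonine wells alone, without DMSO. Of the 6 genes, 5 fell along log10 dose, where 44.0% of all genes tested had a trend and 22.9% fell. Per 10-fold dose the log2 slope was -1.30 ± 0.12 for EGFR (adjusted p = 2.3e-05), -1.02 ± 0.07 for HBEGF (adjusted p = 3.6e-06), -0.70 ± 0.10 for EREG (adjusted p = 0.00031), -0.56 ± 0.10 for AREG (adjusted p = 0.0014) and -0.40 ± 0.13 for ERRFI1 (adjusted p = 0.029). TGFA had -0.11 ± 0.06 (adjusted p = 0.2). The ERRFI1 trend was lost without replicate 2 (adjusted p = 0.16), without replicate 3 (adjusted p = 0.11) and with library sizes only (adjusted p = 0.083).

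The estimated fall of EGFR, HBEGF, EREG and AREG was larger from 100 nM to 1000 nM than from 1000 nM to 10000 nM. This difference between steps was not tested. ERRFI1 did not fall over the second step in the estimate (0.15 ± 0.21, adjusted p = 0.74). From 100 nM to 1000 nM 3 of the 6 genes fell (12.4% of all genes called, 5.07% lower), with a log2 difference of -1.90 ± 0.11 for EGFR (adjusted p = 1.3e-05), -1.23 ± 0.10 for HBEGF (adjusted p = 5.8e-05) and -1.07 ± 0.15 for EREG (adjusted p = 0.00087). ERRFI1 had -0.94 ± 0.21 (adjusted p = 0.0095), and -1.18 and a call without replicate 3. AREG had -0.64 ± 0.21 (adjusted p = 0.046), under the fold threshold. The EREG step was -0.92 without replicate 1, -0.99 without replicate 2 (adjusted p = 0.088) and -0.95 with library sizes only. From 1000 nM to 10000 nM 0 of the 6 were called by edgeR and 0 by DESeq2 (1.11% of all genes called by edgeR), and 3 had an unadjusted p under 0.05, of which HBEGF (-0.80 ± 0.10, adjusted p = 0.0042) and EGFR (-0.69 ± 0.11, adjusted p = 0.011) passed the adjusted threshold without reaching the fold.

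**Figure D2:**
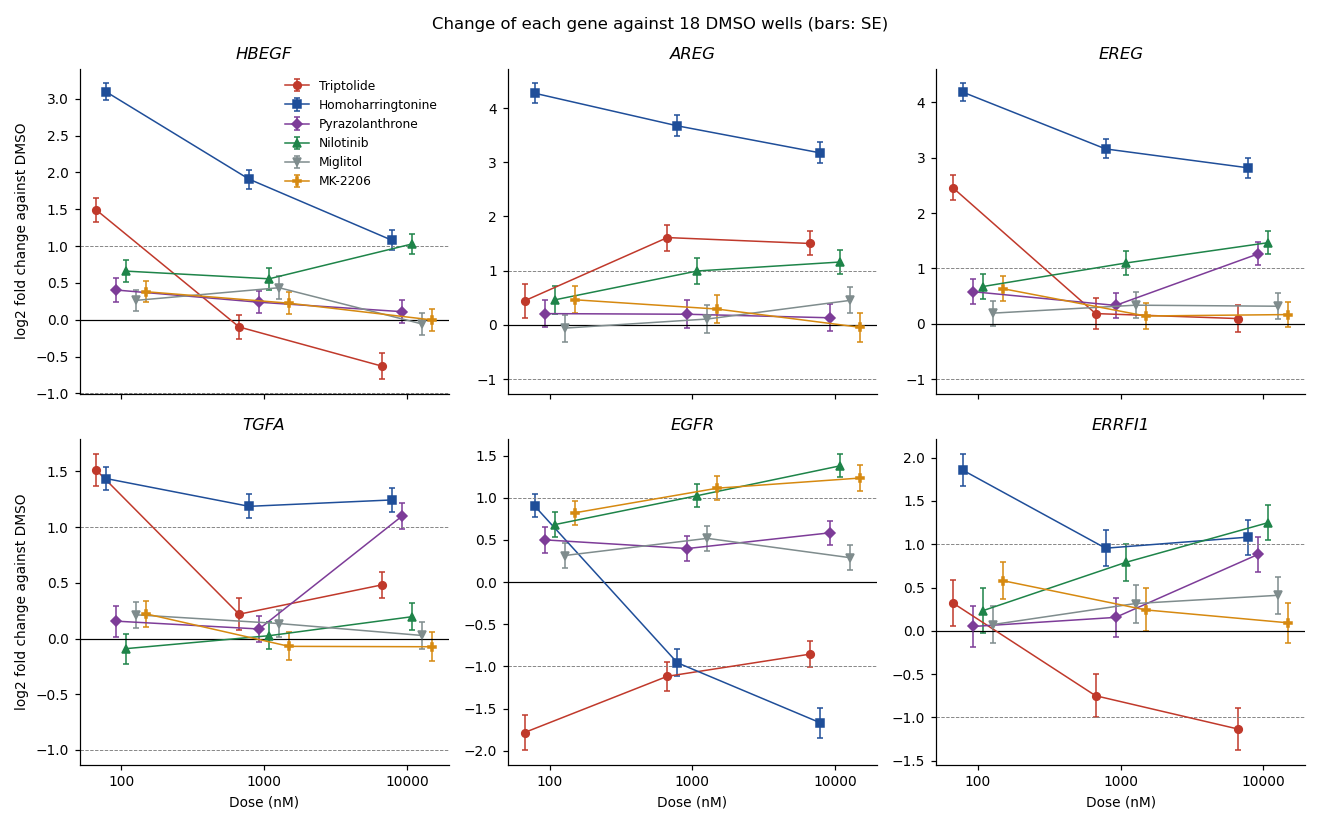
Log2 fold change of each gene against the 18 DMSO wells (y axis, each panel with its own scale) at 100, 1000 and 10000 nM (x axis, log spacing) for the 6 compounds, with SE as bars and dashed lines at 1 and -1. AREG, EREG and HBEGF peak at 100 nM homoharringtonine, with AREG at 4.27, TGFA peaks at 100 nM triptolide with 1.51, and EGFR runs from 0.90 to -1.67 along the homoharringtonine doses and from 0.68 to 1.38 along the nilotinib doses.

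Triptolide gave a pattern that differed by gene and by dose. At 100 nM the ligands EREG, HBEGF and TGFA rose and EGFR fell, so 4 of 6 genes were called (32.4% of all genes called, 11.4% higher and 20.9% lower). At 1000 nM AREG rose and EGFR fell (44.2% called, 13.9% higher). At 10000 nM AREG rose and ERRFI1 fell (46.4% called, 16.2% higher). The median log2 fold change of the 6 was 0.97, 0.04 and -0.27 at the rising doses, against -0.16, -0.21 and -0.17 for all genes tested.

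These directions depend on how the libraries are scaled. With libraries scaled to the 13 mitochondrially encoded mRNAs the median of all genes tested shifted by -1.65, -2.47 and -2.75 (log2) at the rising doses, and no ligand was called higher, so that the 5 higher and 3 lower calls of the 6 genes over the 3 doses became 0 higher and 14 lower. With library sizes only they became 4 higher and 6 lower, and by DESeq2 5 higher and 1 lower. Under the mitochondrial scaling AREG was at -0.84 at 1000 nM and -1.23 at 10000 nM, and HBEGF and TGFA were at -0.15 and -0.09 at 100 nM, where EREG alone stayed above DMSO, at 0.80. With library sizes only, the rises of EREG (2.13), HBEGF (1.18) and TGFA (1.19) at 100 nM and of AREG at 1000 nM (1.15) were called, and that of AREG at 10000 nM was 0.97. On the TPM scale, which sets each library to a fixed sum and uses no TMM factor, mean HBEGF at 10000 nM was 0.384 of the DMSO mean. In CPM it was 0.657, and TGFA was at 0.859 in TPM against 1.43 in CPM. Each change under triptolide given next is therefore a change relative to the median mRNA.

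The 100 nM triptolide wells had HBEGF at 118.5, 60.2 and 92.9 CPM and TGFA at 27.8, 48.2 and 25.6, all above the DMSO wells. EREG had 6.46, 0 and 7.27 CPM, where the 0 was replicate 2, the library of 70767 counts, in which 0 counts allow up to 3. The log2 fold changes were 2.46 ± 0.23 for EREG (adjusted p = 3.7e-09), 1.51 ± 0.14 for TGFA (adjusted p = 3.5e-09) and 1.49 ± 0.16 for HBEGF (adjusted p = 2.1e-08). Without the libraries under 10 mil they were 2.50, 1.45 and 1.54, all called. AREG had 4.05, 12.1 and 3.75 CPM, the middle value being 1 count in the shallow library, and a log2 fold change of 0.44 ± 0.32 (adjusted p = 0.24; adjusted p = 0.18 without the libraries under 10 mil).

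At 1000 nM the order among the ligands was turned. AREG had 7.59, 7.56 and 12.1 CPM, and at 10000 nM 8.93, 9.48 and 7.68, above the 17 deeper DMSO wells. It rose by a log2 fold change of 1.61 ± 0.24 (adjusted p = 1.9e-06) and 1.50 ± 0.22 (adjusted p = 1.5e-06), and the former was 1.74 without the libraries under 10 mil. The other ligands returned towards DMSO: EREG was at 0.18 ± 0.28 and 0.09 ± 0.24 at the 2 higher doses, TGFA at 0.22 ± 0.14 and 0.48 ± 0.12 (adjusted p = 0.0008 for the latter), and HBEGF at -0.10 ± 0.16 and -0.63 ± 0.18 (adjusted p = 0.0026 for the latter).

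EGFR had 19.2, 24.1 and 18.5 CPM at 100 nM triptolide, 24.5, 28.5 and 38.1 at 1000 nM and 34.8, 37.6 and 40.2 at 10000 nM, all below the DMSO wells. It fell at the first 2 doses, with log2 fold changes of -1.78 ± 0.21 (adjusted p = 9.4e-08) and -1.12 ± 0.17 (adjusted p = 4e-06). At 10000 nM the change was -0.85 ± 0.16 (adjusted p = 3.6e-05), under the fold threshold. The call at 1000 nM rests on the threshold: the value was -0.995 without replicate 1 (9.63 mil counts) and -0.95 by DESeq2. Without the libraries under 10 mil EGFR was at -1.80 and -1.01 at these doses, both called.

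ERRFI1 had 70.2, 0 and 58.6 CPM at 100 nM triptolide (the 0 again in the shallow library), 23.0, 22.9 and 40.4 at 1000 nM, and 25.7, 23.4 and 19.1 at 10000 nM, where all 3 wells were below DMSO. It fell by 1.13 on the log2 scale at 10000 nM (SE 0.24, adjusted p = 0.00018), a value of -0.96 by DESeq2. At 1000 nM it had -0.75 ± 0.25 (adjusted p = 0.0099), under the fold threshold. That value was called without replicate 3 (-1.07) and with library sizes only (-1.21), and it missed the p threshold without the libraries under 10 mil (-0.63, adjusted p = 0.076), without replicate 1 (adjusted p = 0.064), without replicate 2 (adjusted p = 0.066) and with the replicate block (-0.40, adjusted p = 0.26). The replicate block against DMSO kept only DMSO wells 1 to 3, so the controls changed as well as the model.

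The steps between doses were tested in the triptolide wells alone. From 100 nM to 1000 nM 5 of 6 genes were called (25.0% of all genes called, 7.94% higher and 17.1% lower): AREG rose by 1.18 ± 0.28 (log2, adjusted p = 0.0042), and EREG (-2.28 ± 0.39, adjusted p = 0.00045), HBEGF (-1.59 ± 0.24, adjusted p = 0.00015), TGFA (-1.28 ± 0.22, adjusted p = 0.00048) and ERRFI1 (-1.08 ± 0.28, adjusted p = 0.0083) fell. The AREG step was lost without replicate 1 (adjusted p = 0.07), by DESeq2 (adjusted p = 0.12) and, at 0.90, without replicate 3, and the ERRFI1 step without replicate 1 (adjusted p = 0.2). Without the libraries under 10 mil all 5 steps were called, AREG at 1.33, EREG at -2.08, HBEGF at -1.79, TGFA at -1.27 and ERRFI1 at -1.04. From 1000 nM to 10000 nM 0 of 6 were called by edgeR or DESeq2, 1 had an unadjusted p under 0.05 (HBEGF, -0.62 ± 0.22) and 0.0971% of all genes were called. Along log10 dose EREG, HBEGF, ERRFI1 and TGFA fell and EGFR rose (24.7% of all genes had a trend), with slopes of -1.18 ± 0.25, -1.08 ± 0.14, -0.73 ± 0.17, -0.53 ± 0.17 and 0.40 ± 0.12. The EGFR trend turned to -0.10 with the mitochondrial scaling, and the trends of EGFR and TGFA were lost without any 1 replicate number, that of EREG without replicate 3 (adjusted p = 0.089) and that of ERRFI1 without replicate 1 or 3 (adjusted p = 0.12 for each). The TGFA trend was also lost without the libraries under 10 mil (adjusted p = 0.056), and the other 4 were kept.

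**Figure D3:**
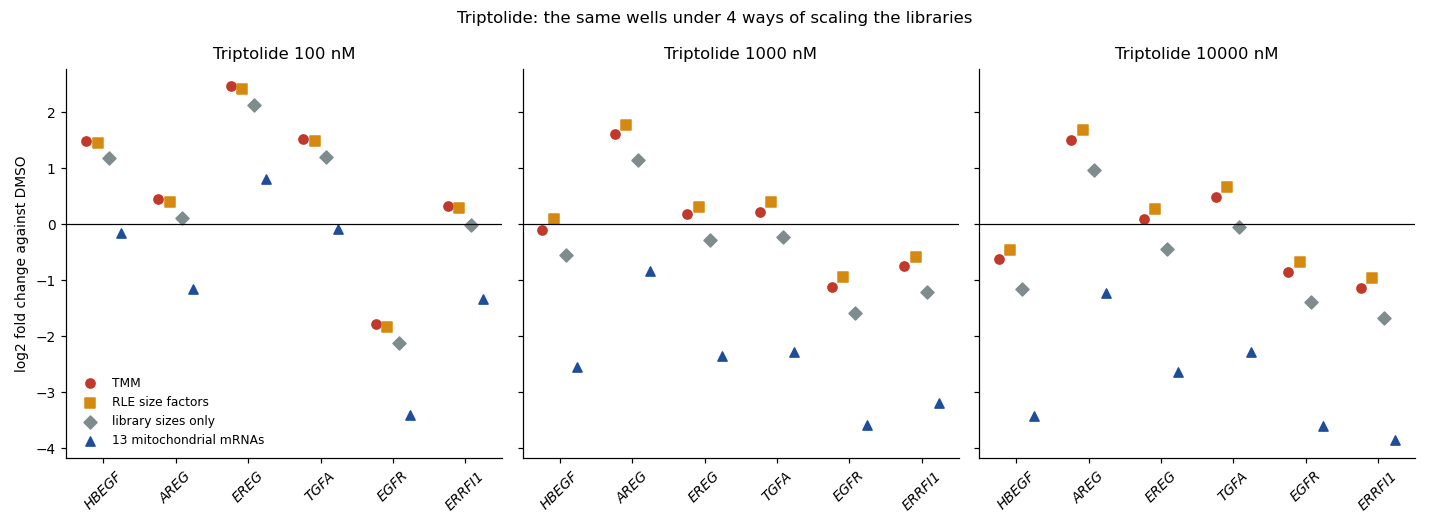
Log2 fold change of each gene against DMSO (y axis) in the triptolide wells at 3 doses (panels) under 4 scalings of the same libraries: TMM, RLE size factors, library sizes only and the sum of 13 mitochondrially encoded mRNAs. Library sizes only lies below TMM and RLE, with TGFA at -0.05 against 0.48 by TMM at 10000 nM, and the mitochondrial scaling, under which no ligand is called higher, lies lowest for every gene, with AREG at -1.23 and EGFR at -3.61 at 10000 nM.

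Triptolide and homoharringtonine wells were compared directly at each dose, in fits that hold no DMSO wells. At 100 nM 5 of the 6 genes were lower with triptolide (47.9% of all genes called, 27.4% lower), and 4 of 6 at 1000 nM (58.6% called, 35.9% lower) and at 10000 nM (68.1% called, 37.9% lower). AREG, EREG, HBEGF and ERRFI1 were lower at all 3 doses. AREG had its widest log2 difference at 100 nM, -3.77 ± 0.27 (adjusted p = 3e-09), and -2.07 ± 0.32 and -1.58 ± 0.11 at the next doses. EREG had its widest at 1000 nM, -2.97 ± 0.39 (adjusted p = 0.0002). HBEGF lay between -1.51 ± 0.19 and -2.02 ± 0.19, and ERRFI1 between -1.43 ± 0.24 and -2.13 ± 0.11. Without the libraries under 10 mil AREG was at -3.85 and -1.96, EREG at -1.68 and -2.75, HBEGF at -1.52 and -2.17 and ERRFI1 at -1.42 and -1.58 at the 2 lower doses, all called, and EGFR at -2.68 at 100 nM.

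With TMM factors EGFR and TGFA were not called lower at every dose. EGFR was lower with triptolide at 100 nM (-2.61 ± 0.19, adjusted p = 5.1e-09), had -0.17 ± 0.23 (adjusted p = 0.53) at 1000 nM and 0.90 ± 0.08 (adjusted p = 1.5e-06) at 10000 nM. With the mitochondrial scaling EGFR was called lower at 1000 nM (-2.55, adjusted p = 1.3e-05) and at 10000 nM (-1.68). TGFA was not called at any dose by edgeR, with 0.13 ± 0.21 (adjusted p = 0.61), -0.98 ± 0.25 (adjusted p = 0.0081) and -0.68 ± 0.08 (adjusted p = 1.4e-05), and the value at 1000 nM was -1.08 and called without replicate 3 and -1.03 and called without the libraries under 10 mil. With library sizes only TGFA was called lower at 1000 nM (-1.29) and at 10000 nM (-1.26, adjusted p = 1e-07), and with the mitochondrial scaling at every dose (-1.52, -3.38 and -3.26).

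**Figure D4:**
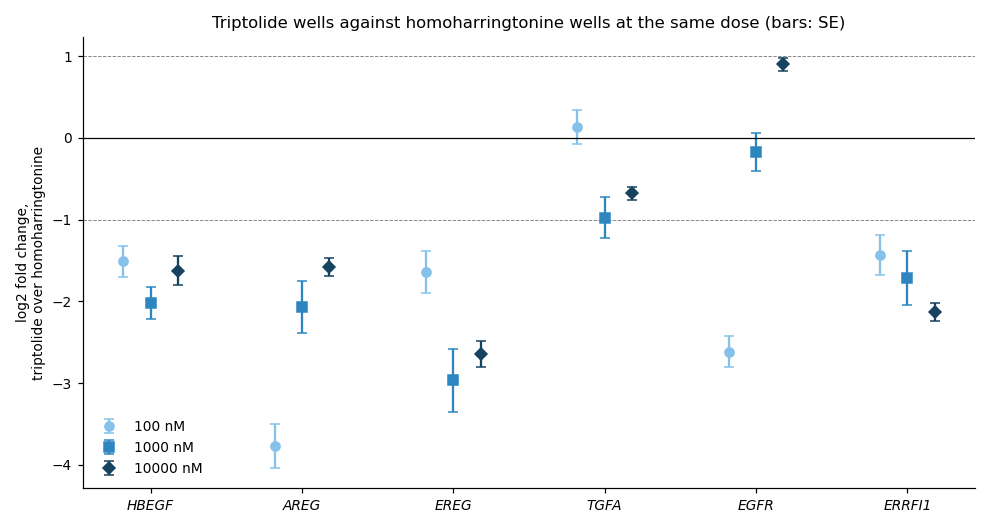
Log2 fold change of triptolide wells over homoharringtonine wells (y axis) for the 6 genes (x axis) at 100, 1000 and 10000 nM, with SE as bars and dashed lines at 1 and -1. AREG, EREG, HBEGF and ERRFI1 lie below -1 at each dose, EGFR moves from -2.61 to 0.90 with dose, and TGFA stays between 0.13 and -0.98.

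Nilotinib raised the receptor, 3 of the 4 ligands and the feedback inhibitor at its highest dose. At 10000 nM 5 of the 6 genes rose, where 3.12% of all genes were called and 2.41% rose. At 1000 nM EGFR and EREG rose (1.13% called, 0.745% higher). At 100 nM 0 of 6 were called by edgeR or DESeq2 (1.48% of all genes called), and 3 had an unadjusted p under 0.05. The median log2 fold change of the 6 was 0.56, 0.89 and 1.20 at the rising doses, and that of all genes tested -0.045, 0.02 and 0.01. Against the same DMSO wells the median of the 6 was also 0.202, 0.325 and 0.303 with miglitol. It was 0.305, 0.217 and 0.734 with pyrazolanthrone and 0.521, 0.233 and 0.045 with MK-2206. The median of all genes tested lay between -0.04 and 0.012 there. The part of the shared DMSO wells in these values was not tested.

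EGFR had 124.6, 95.8 and 97.9 CPM at 100 nM nilotinib, 151.0, 121.3 and 131.6 at 1000 nM and 187.4, 168.4 and 156.6 at 10000 nM. All 9 wells were above the DMSO wells. EGFR rose by a log2 fold change of 1.02 ± 0.14 at 1000 nM (adjusted p = 8.3e-05) and 1.38 ± 0.14 at 10000 nM (adjusted p = 8.7e-08), and had 0.68 ± 0.15 at 100 nM (adjusted p = 0.0053). The call at 1000 nM was under the fold threshold without replicate 1, at 0.94.

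EREG had 3.33, 1.86 and 2.65 CPM at 1000 nM and 3.69, 3.95 and 2.44 at 10000 nM, above the DMSO wells, and rose by 1.10 ± 0.21 (log2, adjusted p = 0.0027) and 1.47 ± 0.21 (adjusted p = 1.6e-05). At 1000 nM the separation was barely there, with a lowest well of 1.863 CPM against a highest DMSO well of 1.858. Without replicate 1 the value at 1000 nM was 0.89 (adjusted p = 0.11), and with the replicate block it was 1.15 (adjusted p = 0.69). ERRFI1 had 128.4, 117.8 and 99.0 CPM at 10000 nM, all above DMSO, and rose by 1.25 ± 0.20 (adjusted p = 8.9e-05). HBEGF had 78.6, 73.9 and 69.2 CPM, again above every DMSO well, and rose by 1.03 ± 0.14 (adjusted p = 8.6e-06), a value of 0.99 without replicate 1. AREG had 7.75, 6.16 and 5.99 CPM, above the 17 deeper DMSO wells, and rose by 1.16 ± 0.23 (adjusted p = 0.0009). TGFA, with 10.8, 11.5 and 11.4 CPM, was within the DMSO wells (0.20 ± 0.12, adjusted p = 0.32).

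At 1000 nM nilotinib AREG was just under the fold threshold (0.99 ± 0.24, adjusted p = 0.017), and 1.02 and called without DMSO replicate 10, as it was without replicate 2 (1.19). ERRFI1 there had 0.79 ± 0.22 (adjusted p = 0.04), and 1.03 and a call without replicate 2. With the mitochondrial scaling, which shifted the median of all genes by -0.69 at 10000 nM, all 5 rises at 10000 nM were under the fold threshold, EREG at 0.82, EGFR at 0.71, ERRFI1 at 0.62, AREG at 0.51 and HBEGF at 0.34 (adjusted p = 0.22). The same scaling called EGFR (1.13), EREG (1.10) and HBEGF (1.07) at 100 nM and AREG (1.04) at 1000 nM, so that under it the calls stood at the 2 lower doses. Along log10 dose EGFR alone had a trend among the 6 genes (3.09% of all genes did), with a slope of 0.34 ± 0.07 (adjusted p = 0.027). The slope was lost without replicate 2 (adjusted p = 0.3), without replicate 3 (adjusted p = 0.49) and with no filter (adjusted p = 0.052), and without replicate 1 ERRFI1 had a trend too (0.74, adjusted p = 0.036).

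With MK-2206 the receptor was the single gene called. EGFR rose at 1000 nM (0.286% of all genes called, 0.194% higher), and again at 10000 nM (0.711% called, 0.56% higher). At 100 nM 0 of 6 were called by edgeR or DESeq2 (0.0054% of all genes called by edgeR), and 4 had an unadjusted p under 0.05. EGFR had 133.7, 103.9 and 115.2 CPM at 100 nM, 133.6, 173.9 and 118.3 at 1000 nM and 114.3, 184.9 and 167.4 at 10000 nM, all above the DMSO wells. The log2 fold changes were 0.82 ± 0.14 (adjusted p = 0.026), 1.11 ± 0.14 (adjusted p = 6.5e-05) and 1.23 ± 0.15 (adjusted p = 1e-05). The call at 1000 nM was lost without replicate 2, at 0.98, and that at 10000 nM with the mitochondrial scaling, at 0.97.

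The ligands and ERRFI1 were not called with MK-2206 at any dose, and their log2 fold changes at 10000 nM lay between -0.07 ± 0.13 (TGFA) and 0.17 ± 0.23 (EREG). ERRFI1 varied widely among these wells, with 42.5, 97.1 and 33.2 CPM at 1000 nM. No trend with dose was found for the 6 genes by edgeR or DESeq2 (0.028% of all genes had one), and 1 had an unadjusted p under 0.05, HBEGF with a slope of -0.19 ± 0.07 (adjusted p = 0.51).

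Pyrazolanthrone changed 2 ligands at its highest dose. EREG and TGFA rose at 10000 nM, where 1.16% of all genes were called and 0.589% rose. At 100 nM (0.923% called) and at 1000 nM (0.0% called by edgeR and 4 genes by DESeq2) 0 of 6 were called by either tool, with 3 and 1 at an unadjusted p under 0.05. TGFA had 19.4, 24.4 and 21.0 CPM at 10000 nM, all above DMSO, and rose by 1.10 ± 0.12 (log2, adjusted p = 1e-06). EREG had 2.66, 3.55 and 2.76 CPM, also above DMSO, and rose by 1.26 ± 0.20 (adjusted p = 0.00027). With the mitochondrial scaling they were at 0.73 and 0.92 and not called.

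ERRFI1 had 88.3, 102.2 and 84.7 CPM at 10000 nM pyrazolanthrone, above DMSO, with a log2 fold change of 0.88 ± 0.20 (adjusted p = 0.0081) under the threshold. EGFR had 0.58 ± 0.15 (adjusted p = 0.014), and HBEGF and AREG 0.11 ± 0.15 and 0.13 ± 0.25. TGFA had the single trend with dose among the 6 genes (18.6% of all genes had one), 0.47 ± 0.12 per 10-fold dose (adjusted p = 0.028). It was lost without replicate 2 (adjusted p = 0.19) and without replicate 3 (adjusted p = 0.17), and ERRFI1 gained one without replicate 1 (0.58, adjusted p = 0.013) and by DESeq2 (0.41).

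Miglitol changed none of the 6 genes. In 18 tests 0 were called by edgeR or DESeq2 and 3 had an unadjusted p under 0.05, and of all genes 0.0% were called by edgeR at each of 100 nM, 1000 nM and 10000 nM, with 944, 1563 and 4195 genes at an unadjusted p under 0.05 and 1, 9 and 3 called by DESeq2. EGFR had the largest value, 0.52 ± 0.15 at 1000 nM (adjusted p = 0.23), from 97.3, 104.9 and 81.8 CPM. AREG had a slope of 0.26 ± 0.07 per 10-fold dose (adjusted p = 0.038; 15.9% of all genes had a trend), with 3.22, 2.51 and 2.81 CPM at 100 nM and 3.83, 4.53 and 4.16 at 10000 nM. The slope was lost on leaving out any 1 replicate number (adjusted p from 0.068 to 0.23) and was -0.17 with the mitochondrial scaling.

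Across the 19 groups the order of levels showed where each gene stood apart. HBEGF was highest at 100 nM homoharringtonine with 307.1 CPM ± 8.84 (SD, n = 3), then at 1000 nM homoharringtonine with 136.4 ± 7.33 and at 100 nM triptolide with 90.5 ± 29.2 (105.7 ± 18.1 in its 2 deeper wells). The 2 steps between these were the only ones of its 18 between neighbouring groups at which wells did not overlap. AREG had 2 such steps, between 100 nM and 1000 nM homoharringtonine and between 10000 nM homoharringtonine (27.4 ± 2.44) and 1000 nM triptolide (9.07 ± 2.59). The first of these was very narrow, with a lowest 100 nM well of 48.27 CPM and a highest 1000 nM well of 48.2. EREG had 3, between the homoharringtonine doses and below the last of them. TGFA also had 3, and its top 5 groups were those of 100 nM triptolide, homoharringtonine and 10000 nM pyrazolanthrone. EGFR had 2, between DMSO and 10000 nM triptolide and between 1000 nM triptolide and 10000 nM homoharringtonine, and ERRFI1 had 1, between 100 nM homoharringtonine (173.5 ± 23.8) and 10000 nM nilotinib (115.1 ± 14.9). All other neighbours overlapped.

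For HBEGF, AREG, EREG, EGFR and ERRFI1 the 3 protein-coding genes with the most alike pattern were found by Pearson's r over the 19 group means of log2(CPM + 1), among 11829 genes, as a description of these groups. HBEGF was most like CEMIP (r = 0.976), a hyaluronan-binding protein, then XIRP1 and SPHK1. EGFR was most like CDYL2 (r = 0.946), then TGFBR2, a receptor of TGF-beta, and BMP6. ERRFI1 was most like PAK1IP1 (r = 0.966), then RGS4 and RCAN1. AREG was most like ATG12 (r = 0.984), DNAJC1 and RAET1L, and EREG like GCNA (r = 0.961), TNFRSF10B and NUMB. Without the triptolide and homoharringtonine groups (13 groups left) r stayed at 0.94 for CEMIP (rank 9) and 0.93 for CDYL2 (rank 10). It was 0.66 for ATG12 (rank 837), 0.809 for GCNA (rank 95) and 0.848 for PAK1IP1 (rank 294). By Spearman's rho over the 19 groups CEMIP was at rank 1, CDYL2 at 2, ATG12 at 10, PAK1IP1 at 122 and GCNA at 230. Among the 6 genes themselves HBEGF and EREG (r = 0.919) and AREG and EREG (r = 0.908) were most alike over 19 groups, and EREG and ERRFI1 (r = 0.89) over the 13. The first 2 pairs had rho = 0.839 and 0.54 over the 19 groups, and r = 0.682 and 0.731 over the 13. Group means took in the shallow libraries. At 100 nM triptolide the mean was 4.58 CPM for EREG and 42.95 for ERRFI1, against 6.87 and 64.42 in the 2 deeper wells. The part of these libraries in r was not tested.

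Some of the 6 genes varied together among untreated wells: of 15 relations between 2 of the genes, 10 passed an adjusted p of 0.05 by Pearson's r. The share of all pairs of genes that pass was not computed, so the count describes no trait particular to these 6. By permutation HBEGF with ERRFI1 passed by Pearson's r (adjusted p = 0.036) and not by Spearman's rho (adjusted p = 0.11). In the 17 deeper DMSO wells, EREG and EGFR had Pearson's r = 0.876 and Spearman's rho = 0.89 on log2(CPM + 1), each with a permutation p of 1e-05, the smallest that 100000 permutations give (adjusted p = 0.00021 over 21 relations), and r = 0.782 without the 2 wells farthest from the EREG median. AREG and ERRFI1 had r = 0.792 and rho = 0.838 (permutation p = 0.00027 and 6e-05, adjusted p = 0.0014 and 0.00063), and r = 0.733 without the 2 farthest wells. EGFR and ERRFI1 had r = 0.781 and rho = 0.706 (permutation p = 0.00024 and 0.0022, adjusted p = 0.0014 and 0.0079), with 0.715. The other 5 were HBEGF with AREG, the lowest at r = 0.232, AREG with TGFA and with EGFR, and TGFA with EREG and with EGFR. Depth moved with some of them: log2 of the library's counts had r = 0.638 and rho = 0.603 with ERRFI1 (permutation p = 0.0043 and 0.012, adjusted p = 0.012 and 0.033), with 0.691 without the 2 farthest wells. With EREG depth had r = 0.583 and rho = 0.49 (adjusted p = 0.034 and 0.079). With AREG it had r = 0.515 and rho = 0.593 (adjusted p = 0.051 and 0.033). HBEGF, TGFA and EGFR passed with depth by neither measure. The part of depth in the relations was not tested.

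The rest of the pathway was followed in 6 lists of 36 genes, of which 33 or 34 were tested against DMSO in each comparison. Homoharringtonine gave 33 calls in 102 tests over its 3 doses, 16 higher and 17 lower, and triptolide 30 in 99, 8 higher and 22 lower, which became 0 higher and 30 lower with library sizes only. Nilotinib gave 2, NRG4 (-1.68 ± 0.51) and ERBB3 (-1.21 ± 0.16) at 100 nM, and pyrazolanthrone 1, EGF at 100 nM (-1.29 ± 0.30). MK-2206 and miglitol gave 0 by edgeR and DESeq2, with 18 and 27 tests at an unadjusted p under 0.05. Pooled over doses, the lists' shares lay near or below those of all genes.

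Among the other ligands, homoharringtonine raised BTC, betacellulin, at every dose (log2 2.23 ± 0.48, 2.21 ± 0.46 and 2.18 ± 0.44) from a very low level of 0.092 TPM in DMSO. It lowered NRG4 at every dose, with log2 fold changes of -4.20 ± 0.70, -1.88 ± 0.53 and -1.70 ± 0.47, and NRG3 at the 2 higher doses (-1.54 ± 0.20 and -1.59 ± 0.21). Triptolide lowered NRG2 at every dose, to -3.39 ± 0.30 at 1000 nM. NRG1, a ligand of ERBB3 and ERBB4, was at -1.25 ± 0.21 at 100 nM triptolide and 1.24 ± 0.16 and 1.26 ± 0.14 at the higher doses, all called, with each direction relative to the median mRNA.

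Of the 3 other ERBB receptors, ERBB2 and ERBB3 were tested with homoharringtonine, and both fell at every dose, where 19.3%, 20.9% and 23.4% of all genes were called lower at the rising doses. ERBB2 had log2 fold changes of -1.80 ± 0.17, -2.17 ± 0.18 and -2.14 ± 0.15 at the rising doses, with adjusted p between 1.4e-09 and 3.5e-12, and ERBB3 -1.87 ± 0.18, -1.05 ± 0.16 and -1.22 ± 0.15, all called. In TPM, ERBB2 went from 53.4 in DMSO to 13.6, 11.1 and 13.8. So at 100 nM homoharringtonine, where EGFR wells were above DMSO, ERBB2 and ERBB3 were both called lower. With triptolide ERBB3 was the single receptor call besides EGFR, lower at 100 nM (-2.23 ± 0.25).

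Of the 5 genes for ligand shedding, RHBDF1, a partner of ADAM17, rose at every dose of homoharringtonine (1.12 ± 0.14, 2.41 ± 0.13 and 2.41 ± 0.12), while its relative RHBDF2 fell at every dose (-1.23 ± 0.18, -1.39 ± 0.20 and -1.49 ± 0.17). ADAM12 rose with triptolide at the 2 higher doses (1.38 ± 0.11 and 1.52 ± 0.11). Among adaptors and attenuators, triptolide lowered the adaptor GAB1 at every dose (log2 -1.93, -2.95 and -2.78), SOS1 at the 2 higher doses (-1.62 and -1.63), the ubiquitin ligase CBLB at every dose (-2.28, -3.09 and -3.38) and SOCS5 at every dose (-1.97, -1.43 and -1.43). Homoharringtonine raised CBLB at the 2 higher doses (1.06 ± 0.12 and 1.27 ± 0.11). Of the 10 genes of the RAS to ERK cascade, BRAF rose with homoharringtonine at the 2 higher doses (1.89 ± 0.21 and 2.34 ± 0.19) and fell with triptolide at the 2 lower doses (-1.30 and -1.05), and MAPK3, which encodes ERK1, rose with triptolide at the 2 higher doses (1.31 ± 0.12 and 1.48 ± 0.11). With library sizes only, none of the triptolide rises in these lists was called.

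Markers of other cell types moved with these compounds as well. The 5 epithelial markers summed to 7.25 to 12.2 TPM in triptolide wells and 6.35 to 10.8 in homoharringtonine wells of 10 mil or more, above the DMSO range, and the 10 osteoblast lineage markers summed to 1253 to 2229 in homoharringtonine wells and 5285 to 7481 in triptolide wells, below and above the 3653 to 5267 of DMSO. The blood marker HBB was at 0 in the DMSO wells. The part of these values in the results was not tested. EGFR shares its locus with the antisense gene EGFR-AS1, and the strand setting of the counting is not given in the sources used here, so reads of this pair may not have been told apart.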

How the data were processed

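RNA of 72 wells of U2OS cells was prepared with a poly A selecting, stranded kit and sequenced. Per the file headers, the authors deposited for each gene an expected count from RSEM together with TPM and FPKM values, and the submitters' processing notes also name GRCh38, HTSeq and DESeq2. The version of RSEM, its annotation and its strand setting are not given in the sources used here. TPM, as deposited by the authors and without TMM factors, was used to compare levels between genes. It was also used between groups for HBEGF and TGFA with triptolide, ERBB2 with homoharringtonine and the marker sums. FPKM was not used. Samples were grouped by the labels' compound and dose.

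Expected counts were rounded (11.61% were not whole) and tested with edgeR 4.0.16 (R 4.3.3), with TMM factors, filterByExpr at a minimum count of 10 and the quasi-likelihood test. Each dose was fitted with the 18 DMSO wells alone, the 2 compounds compared directly in their 6 wells, and dose trends and steps in a compound's 9 wells. p-values were Benjamini-Hochberg adjusted over all genes tested. A call needs an adjusted p under 0.05 and, except for trends, a log2 fold change past 1. Correlations used scipy 1.17.1 on Python 3.11.15, and sequences came from GENCODE 44 transcripts and RefSeq promoters. The likeness search took genes with a mean of at least 5 CPM in a group. DESeq2 1.42.0, other scalings and filters, left-out wells and a replicate block were run as alternatives. Against DMSO, the replicate block was fitted with DMSO wells 1 to 3 only.

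The 6 genes, the pathway lists and the markers were chosen with earlier results of these data known. Named genes are the 6, the list genes called at 2 or more doses of a compound (otherwise the largest change) and the 3 most alike genes. The genes most like TGFA are not reported here. Pairing by replicate number was checked only between treated wells and DMSO wells 1 to 3. Deviations from group means correlated at -0.069 on average between wells of the same number and 0.034 between others. In 1 of 18 groups every pair was over 0.1. Treated groups were not compared with each other, so a batch shared by their replicate numbers could not be seen.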

Additional observations from a re-analysis of the deposited data

Results flagged for a closer look

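EGFR at homoharringtonine was picked out because its 3 wells at 100 nM all lay above the DMSO wells and its 3 wells at 1000 nM all lay below them. The log2 difference from 100 nM to 1000 nM was -1.90 ± 0.11, where the DMSO comparisons gave 0.90 and -0.96. It comes from the same 6 wells that picked EGFR out, so it is a description and no independent test.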

How the results depend on the processing

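Of the 186 values of the 6 genes over all comparisons, 180 kept their sign and side of the threshold with DESeq2, 181 with RLE size factors, 164 with library sizes only, 180 with no filter, 158, 169 and 162 without replicate 1, 2 and 3, and 117 with libraries scaled to mitochondrial mRNAs. Values not called either way changed sign in 2, 3, 10, 1, 14, 7, 11 and 22 cases in the same order, and with library sizes only these included TGFA at 1000 nM (-0.24) and 10000 nM triptolide (-0.05). Values called in either fit changed sign in 17 cases, all under the mitochondrial scaling. These were, against DMSO, AREG, ERRFI1, HBEGF and TGFA at 100 nM triptolide (-1.16, -1.34, -0.15 and -0.09), AREG, EREG and TGFA at 1000 nM (-0.84, -2.35 and -2.27) and at 10000 nM (-1.23, -2.64 and -2.29). Between triptolide and homoharringtonine they were TGFA at 100 nM (-1.52) and EGFR at 10000 nM (-1.68), and among slopes AREG with miglitol (-0.17), EGFR, HBEGF and TGFA with nilotinib (-0.21, -0.37 and -0.42) and EGFR with triptolide (-0.10). The cause was not tested.

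Counts of calls moved as follows. Under the mitochondrial scaling the triptolide calls went from 8 to 14, those of pyrazolanthrone from 2 to 0 and of MK-2206 from 2 to 1, and the trends of nilotinib from 1 to 2 and of miglitol from 1 to 3. Requiring 10 counts in every well left 3 of 15 homoharringtonine calls, 2 of 7 nilotinib calls and 0 of 2 pyrazolanthrone calls, since DMSO replicate 10 removes most of the 6 genes from the test, and gave no value for fits with the 70767-count library. With no filter the trends of nilotinib and miglitol went from 1 to 0. Pyrazolanthrone trends went from 1 to 2 with DESeq2, library sizes only, no filter and 10 counts in every well. Leaving out 1 replicate number gave 4 to 9 nilotinib calls, 1 to 2 MK-2206 calls, 3 to 5 triptolide steps, 1 to 3 triptolide trends, 0 to 2 pyrazolanthrone and nilotinib trends and 0 miglitol trends. The fit without DMSO replicate 10 was chosen after seeing the data and changed 1 call, AREG at 1000 nM nilotinib.

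With the replicate number as a block, although the numbers showed no pairing with DMSO wells, triptolide trends went from 5 to 2. Pyrazolanthrone trends went from 1 to 2 and nilotinib trends from 1 to 3. The other counts under the replicate block stayed within 1.5 times, at 16 homoharringtonine, 7 triptolide, 5 nilotinib, 3 pyrazolanthrone and 2 MK-2206 calls and 14 between the 2 inhibitors. In the fits against DMSO the block also left out all DMSO wells but 1 to 3. The parts of the block and of the smaller control set were not told apart. Depth limits the 100 nM triptolide values most, where replicate 2 holds 0 to 5 counts of each of the 6 genes.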
